A study of Mus musculus with 8 samples.

Results

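The genes described here are 10 members of the p53 pathway, chosen by symbol for roles in the feedback control of p53 or in the arrest and stress programme downstream of it: Trp53, Mdm2, Mdm4, Trp53inp1, Ccng1, Plk2, Perp, Ddit4l, Cd80 and Ak1. Probe sets annotated with exactly 1 of these symbols were taken, which gave 24 probe sets for 9 of the 10 genes, out of 18193 genes and 45037 probe sets. No probe set used here carries Trp53 as its symbol, so its transcript was not analysed here, and p53 protein was not measured. Expression was profiled on Affymetrix arrays in NG4 mouse embryonic stem cells, a single line, 48 h after reverse transfection with small interfering RNA (siRNA). The groups were siPsmd14, which targets the proteasome-associated deubiquitinase gene Psmd14, siDdb1, which targets the adaptor of CUL4 ubiquitin ligases, siSox2, which targets a pluripotency transcription factor, and the non-targeting control siNonTarget. Each group had 2 arrays, all groups went through the same transfection, and the labels name no other allele or agent. Nothing in the labels says that replicates were separate cultures, so each p-value reflects the spread between the arrays at hand, and that spread may be technical.

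p53 is a transcription factor that is kept scarce in unstressed cells, because Mdm2 marks it with ubiquitin and the proteasome then degrades it. p53 in turn activates Mdm2, which closes a negative feedback loop, and it activates genes that halt the cell cycle, restrain growth or start cell death. In mouse embryonic stem cells p53 is also known for repressing Nanog after DNA damage.

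Start regions of 4 of the genes are shown because p53 binds DNA through a 10-base consensus, the p53 decamer, of which a full site carries a pair. RefSeq windows on GRCm38.p6, reaching 250 bases before to 50 bases after an annotated start, were at hand for 8 of the 10 genes in 12 windows. The decamer consensus reads the same on both strands, and a single copy, with no mismatch allowed, was looked for. It was present in 4 of the 12 member windows (Mdm2, Ccng1, Ddit4l and Trp53), against 8.36% of the 32851 windows in the table. No copy lay in the windows of Mdm4, Ak1, Plk2 or Cd80, which says only that these letters are not in those windows. The windows below lie at chr10:117710709-117711008 on the minus strand for Mdm2, chr11:40755237-40755536 on the minus strand for Ccng1, chr3:137623422-137623721 on the plus strand for Ddit4l and chr13:110394794-110395093 on the plus strand for Plk2, which is shown as a window without the decamer. Capitals mark the decamer, whose first base lies 186 bases before the start in Mdm2, 185 in Ccng1 and 90 in Ddit4l.
Mdm2: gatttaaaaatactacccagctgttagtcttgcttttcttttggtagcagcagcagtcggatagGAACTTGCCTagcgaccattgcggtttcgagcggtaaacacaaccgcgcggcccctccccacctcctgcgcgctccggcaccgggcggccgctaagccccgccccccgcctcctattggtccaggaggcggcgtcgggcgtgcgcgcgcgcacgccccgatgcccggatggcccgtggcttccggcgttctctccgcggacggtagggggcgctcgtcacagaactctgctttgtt
Ccng1: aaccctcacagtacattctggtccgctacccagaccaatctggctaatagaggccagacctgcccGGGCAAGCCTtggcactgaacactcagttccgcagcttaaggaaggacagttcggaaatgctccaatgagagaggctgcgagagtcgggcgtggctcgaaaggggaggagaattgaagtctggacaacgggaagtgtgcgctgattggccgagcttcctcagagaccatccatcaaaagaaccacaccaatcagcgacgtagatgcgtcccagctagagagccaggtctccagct
Ddit4l: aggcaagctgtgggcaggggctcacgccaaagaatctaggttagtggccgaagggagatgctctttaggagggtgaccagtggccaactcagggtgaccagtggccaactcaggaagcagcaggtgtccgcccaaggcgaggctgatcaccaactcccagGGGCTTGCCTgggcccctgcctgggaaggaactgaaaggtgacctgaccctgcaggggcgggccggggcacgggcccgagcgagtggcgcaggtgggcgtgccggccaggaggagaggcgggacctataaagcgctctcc
Plk2: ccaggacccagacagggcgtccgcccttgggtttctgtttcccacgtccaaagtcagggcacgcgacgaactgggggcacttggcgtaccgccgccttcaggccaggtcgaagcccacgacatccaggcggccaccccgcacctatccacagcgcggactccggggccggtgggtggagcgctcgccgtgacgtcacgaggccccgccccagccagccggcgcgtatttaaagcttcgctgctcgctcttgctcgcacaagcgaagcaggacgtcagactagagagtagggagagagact
The match is a description of sequence, sites outside the windows were not looked for, and binding of p53 was not measured.

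All values below are log2 of the deposited intensity, a level unless called a difference, and each gene stands for 1 probe set, the one that was brightest on average over the 8 arrays. Levels of different genes are not compared, since probe sets differ in brightness. The limma threshold was an adjusted p of 0.05 over all 45037 probe sets. The targeted genes were read first. Ddb1 signal was 22.1% and 46.1% of the control mean on the siDdb1 arrays (difference -1.65 in limma, SE 0.28, adjusted p = 0.147), Psmd14 was 90.5% and 82.7% on the siPsmd14 arrays (adjusted p = 0.522), and Sox2 was 83.6% and 69.8% on the siSox2 arrays (adjusted p = 0.301). None of these differences passed the threshold in limma against the control. Set against siSox2, Ddb1 did fall in siDdb1 (-1.92, limma adjusted p = 0.00888), as it did set against siPsmd14 (siPsmd14 minus siDdb1 1.87, adjusted p = 0.0321), while Psmd14 and Sox2 passed in no comparison. The groups are called by their labels. Array medians lay between 27.37 and 28.83 intensity units. All 10 embryonic stem cell markers examined, Pou5f1 and Nanog among them, read above the array median on every array, with a summed intensity of 47370 and 48800 in siPsmd14, 52150 and 53410 in siDdb1, 49670 and 45160 in siSox2, and 55610 and 59760 in siNonTarget. Against the control the median difference of these markers was -0.44 in siPsmd14, -0.18 in siDdb1 and -0.4 in siSox2. In siSox2 2 of the 10 fell (1.05% of all probe sets), Tcl1 (-1.4, limma adjusted p = 0.0207) and Esrrb (-0.58, adjusted p = 0.0399). None passed in siPsmd14 (1.35% of all probe sets did) or siDdb1 (0.0266%). In bulk RNA, fewer cells of a type and less RNA per cell cannot be told apart. The 3' minus 5' difference of the Actb control probes, a sign of RNA integrity, was largest in siPsmd14 replicate 1 (0.346, and 0.0962 to 0.214 elsewhere). Signal of 18S ribosomal RNA was highest in replicate 2 of siPsmd14 (12.51) and of siDdb1 (12.05), with 10.42 to 11.4 elsewhere.

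In siPsmd14, 4 of the 9 measured genes rose and none fell: Mdm2, Plk2, Perp and Ddit4l, by 3.09- to 4.01-fold. Over all probe sets 1.11% rose and 0.24% fell in that comparison. The siPsmd14 arrays lay above both control arrays for 8 of the 9 genes (19.8% of all probe sets) and below them for Mdm4 (23.7%). The median difference over the 9 genes was 0.99, against -0.015 over all genes. In siDdb1 none of the 9 passed in limma, where 0.0266% of all probe sets did, and 7 had an unadjusted p under 0.05 (8.04% of all). Their median difference in siDdb1 was 1.01, also against -0.015 over all genes, and 7 of 9 had both siDdb1 arrays above both control arrays (17.6%) with none below (21.2%). In siSox2 none passed in limma (2.93% of all probe sets did, 1.88% higher and 1.05% lower), 5 had an unadjusted p under 0.05 (15.0%), and the median difference was 0.34 against -0.028. The siSox2 arrays lay above both control arrays for Mdm2, Ccng1, Plk2 and Perp (20.0% of all probe sets) and below them for Mdm4 and Ak1 (27.6%). The 3 knockdowns share their control arrays, so these counts are not independent of each other. The genes were also chosen with earlier results of these arrays known and are not independent evidence of a direction. In the F test of limma over the 4 groups, 6 of the 9 passed (3.96% of all probe sets), namely Mdm2, Plk2, Perp, Ddit4l, Cd80 and Ak1.

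**Figure D1:**
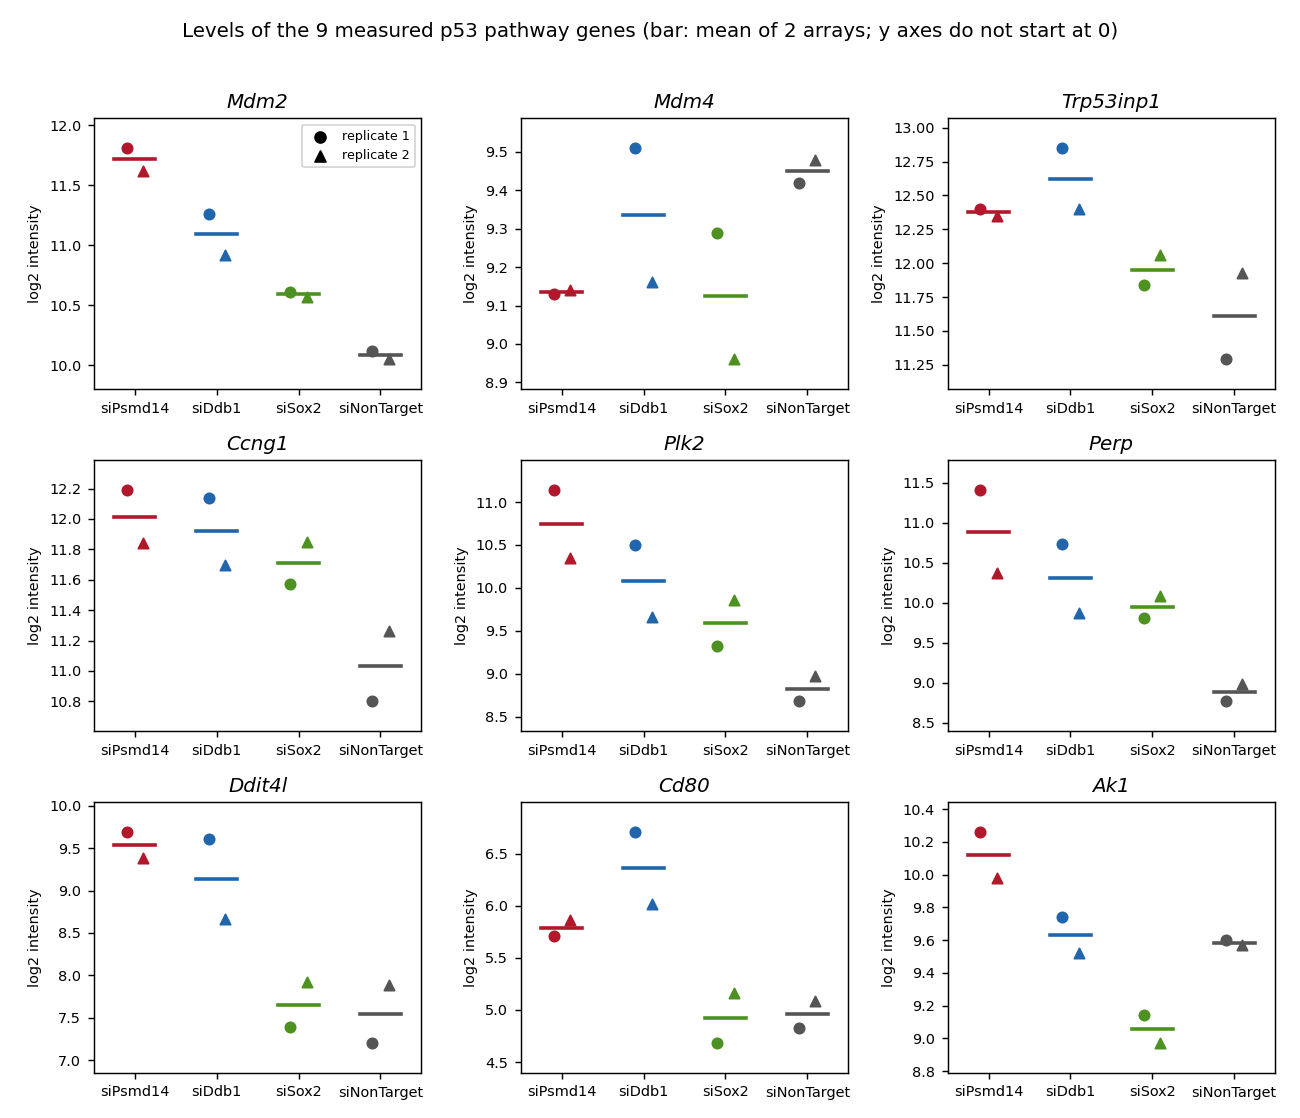
Log2 intensity of the 9 measured genes on each array, by group, with circles for replicate 1, triangles for replicate 2 and a bar for the mean of the 2 arrays. For Mdm2 the 4 groups do not overlap, from 11.81 and 11.62 in siPsmd14 to 10.12 and 10.05 in siNonTarget, while Mdm4 shows no such order.

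Mdm2, the ubiquitin ligase that targets p53 for degradation, showed the smallest adjusted p of the 9 genes. It read 11.81 and 11.62 in siPsmd14, 11.26 and 10.92 in siDdb1, 10.61 and 10.57 in siSox2, and 10.12 and 10.05 in siNonTarget. No 2 groups overlapped, and the order was siPsmd14, siDdb1, siSox2, siNonTarget. The rise in siPsmd14 was 1.63 (SE 0.15, 3.09-fold, limma adjusted p = 0.00319). Neighbours in the order did not pass in limma: siPsmd14 minus siDdb1 was 0.62 (adjusted p = 0.14), siDdb1 minus siSox2 0.50 (adjusted p = 0.128) and siSox2 minus siNonTarget 0.51 (adjusted p = 0.127). Against the control siDdb1 differed by 1.01, with an interval of 0.67 to 1.34 and an adjusted p of 0.0936 in limma. A second probe set of Mdm2 read 10.65 and 10.51 in siPsmd14, 10.44 and 9.97 in siDdb1, 9.28 and 9.50 in siSox2, and 8.88 and 8.89 in siNonTarget. It rose in siPsmd14 (1.69, limma adjusted p = 0.00453) and was higher in siDdb1 than in siSox2 (0.81, limma adjusted p = 0.0383). The third Mdm2 probe set read 3.22 to 3.84 on all arrays, below the array medians, and passed in no comparison.

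Mdm4 is the relative of Mdm2 that binds p53 and restrains its transcriptional activity. By each gene's brightest probe set, it alone of the 9 had a mean below the control in all 3 knockdowns. It read 9.13 and 9.14 in siPsmd14, 9.51 and 9.16 in siDdb1, 9.29 and 8.96 in siSox2, and 9.42 and 9.48 in siNonTarget. The siPsmd14 and siSox2 arrays lay below the controls and the siDdb1 arrays lay on either side of them. The differences were -0.32, -0.11 and -0.33 in siPsmd14, siDdb1 and siSox2, and none passed in limma (adjusted p of 0.417, 0.921 and 0.398). In siPsmd14 the 95% interval was -0.68 to 0.05. None of the other 3 Mdm4 probe sets passed in any comparison. In siPsmd14 they differed from the control by -0.03, 0.16 and -0.06, and in siSox2 by -0.29, 0.09 and 0.23.

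Trp53inp1, a nuclear stress protein that promotes the phosphorylation of p53, and Ccng1, which encodes cyclin G1, a p53 target that takes part in the control of Mdm2, were higher on every siPsmd14 and siDdb1 array than on either control array but did not pass in limma. Trp53inp1 read 12.40 and 12.35 in siPsmd14, 12.85 and 12.40 in siDdb1, 11.84 and 12.06 in siSox2, and 11.29 and 11.93 in siNonTarget. Its 2 control arrays differed by 0.64, more than the 2 arrays of any other group. The difference from control was 0.77 in siPsmd14 (adjusted p = 0.148 in limma) and 1.01 in siDdb1 (adjusted p = 0.244), while siSox2 overlapped the control (0.34). Its dimmer probe set was higher in siDdb1 than in siSox2 (1.01, limma adjusted p = 0.0236), which the brighter one was not (0.67, adjusted p = 0.177).

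Ccng1 read 12.19 and 11.84 in siPsmd14, 12.14 and 11.70 in siDdb1, 11.57 and 11.85 in siSox2, and 10.80 and 11.26 in siNonTarget. All 6 knockdown arrays lay above both controls, and the 3 knockdowns overlapped each other. The differences from control were 0.99 in siPsmd14 (limma adjusted p = 0.0685, and 0.0344 with trend and robust moderation), 0.89 in siDdb1 (0.282) and 0.68 in siSox2 (0.16). The other 2 Ccng1 probe sets gave 0.73 and 0.86 in siPsmd14, 0.68 and 0.79 in siDdb1, and 0.15 and 0.49 in siSox2, with none past the threshold.

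Plk2, a polo-like kinase induced by p53 and linked to centriole duplication and checkpoint control, rose 3.79-fold in siPsmd14. It read 11.14 and 10.35 in siPsmd14, 10.50 and 9.66 in siDdb1, 9.32 and 9.86 in siSox2, and 8.68 and 8.97 in siNonTarget. Every knockdown array lay above both controls, and replicate 2 of siPsmd14 lay below replicate 1 of siDdb1. The limma difference in siPsmd14 was 1.92 (SE 0.33, adjusted p = 0.031), against 1.26 in siDdb1 (adjusted p = 0.319) and 0.76 in siSox2 (adjusted p = 0.312). The other Plk2 probe set read 3.20 to 3.98 on all arrays, below the array medians, and gave -0.54 in siPsmd14 (limma adjusted p = 0.145).

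Perp, a membrane protein of desmosomes that p53 also uses as an effector of cell death, rose 4.01-fold in siPsmd14. It read 11.41 and 10.37 in siPsmd14, 10.74 and 9.87 in siDdb1, 9.81 and 10.09 in siSox2, and 8.77 and 8.99 in siNonTarget, by its single probe set. All knockdown arrays lay above the controls, and the 2 siPsmd14 arrays differed by 1.04. The rise was 2.0 (SE 0.35, limma adjusted p = 0.0337). Differences were 1.42 in siDdb1 (adjusted p = 0.289) and 1.07 in siSox2 (adjusted p = 0.172 in limma with all 8 arrays, and 0.0213 with only the 4 arrays of that comparison). Perp is an epithelial gene, and trophectoderm, the outer epithelium of the blastocyst, is a cell type these cultures could hold. Of 10 trophectoderm markers 6 rose in siSox2 (1.88% of all probe sets), namely Plac1 (6.23), Krt7 (4.47), Ascl2 (3.5), Gata3 (2.33), Cdx2 (1.65) and Tfap2c (0.85). None passed as higher in siDdb1 (0.0266% of all probe sets), and 1 did in siPsmd14 (1.11%), the keratin gene Krt7 (1.94, limma adjusted p = 0.0218). The list's median difference was 0.36 in siPsmd14, 0.31 in siDdb1 and 1.25 in siSox2, with 7, 8 and 10 of the 10 above 0. Short of the threshold, Eomes differed by 1.41 in siDdb1 (limma adjusted p = 0.0853) and Plac1 by 1.04 in siPsmd14 (adjusted p = 0.0533). The summed marker intensity was 1355 and 1369 in siPsmd14, 1384 and 1236 in siDdb1, 4867 and 6258 in siSox2, and 1238 and 1166 in siNonTarget, and its part in the Perp values was not tested. Elf5 and Tpbpa of that list read below the array medians on every array. Of 8 primitive endoderm markers 4 rose in siSox2 (1.88% of all probe sets) and none in siPsmd14 (1.11%) or siDdb1 (0.0266%).

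Ddit4l, an inhibitor of the growth regulator mTORC1, separated siPsmd14 and siDdb1 from siSox2 and the control. It read 9.69 and 9.38 in siPsmd14, 9.61 and 8.67 in siDdb1, 7.39 and 7.92 in siSox2, and 7.20 and 7.89 in siNonTarget. The siPsmd14 and siDdb1 arrays all lay above the other 4, and siSox2 overlapped the control. The rise in siPsmd14 was 1.99 (SE 0.33, 3.96-fold, limma adjusted p = 0.028). The difference of siDdb1 from control was 1.59 with an interval of 0.85 to 2.34 (limma adjusted p = 0.227). Over the other 2 probe sets the siPsmd14 difference was 2.44 (limma adjusted p = 0.068) and 1.63 (adjusted p = 0.0314).

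Cd80, a surface ligand that co-stimulates T cells, was highest in siDdb1. It read 5.71 and 5.86 in siPsmd14, 6.71 and 6.02 in siDdb1, 4.68 and 5.16 in siSox2, and 4.83 and 5.09 in siNonTarget. Both siPsmd14 and siDdb1 lay above the control without overlap, while siSox2 overlapped it. The difference from control was 1.41 in siDdb1 (SE 0.24, limma adjusted p = 0.147) and 0.83 in siPsmd14 (adjusted p = 0.144), neither past the threshold. The gene was dim, with an overall mean of 5.51 against array medians near 4.81, and its other 3 probe sets had means below that line. One of them read 4.81 and 4.83 in siPsmd14, 5.88 and 5.38 in siDdb1, 4.11 and 4.13 in siSox2, and 4.38 and 4.54 in siNonTarget, the same order of the knockdowns. Another read 3.97 and 4.02 in siPsmd14, 4.07 and 4.27 in siDdb1, 4.17 and 4.17 in siSox2, and 4.48 and 4.26 in siNonTarget, with siPsmd14 lowest and no call in limma (-0.37 in siPsmd14 against the control, adjusted p = 0.24). Of 8 markers of leukocytes and antigen-presenting cells, where Cd80 is best known, none passed in a knockdown against the control. Over all probe sets 1.35%, 0.0266% and 2.93% passed in siPsmd14, siDdb1 and siSox2. The summed intensity of these markers was 410 and 335.9 in siPsmd14, 422.3 and 327.4 in siDdb1, 315.8 and 345.8 in siSox2, and 340.8 and 347.1 in siNonTarget. The pan-leukocyte marker Ptprc had group means of 4.42, 4.05 and 3.30 in siPsmd14, siDdb1 and siSox2 and 3.69 in siNonTarget, below the array medians in each. Between knockdowns 1 of the 8 was higher in siDdb1 than in siSox2 (1.37% of all probe sets), where Cd80 was also higher. This was Cd74, the invariant chain of antigen presentation (0.82, limma adjusted p = 0.0211). Its group means were 5.46, 6.07 and 5.25 in siPsmd14, siDdb1 and siSox2 and 5.47 in siNonTarget, above the array medians. Ptprc was higher in siPsmd14 than in siSox2 (1.12, limma adjusted p = 0.0456), where 1.35% of all probe sets were higher. None of the 8 passed between siPsmd14 and siDdb1 (0.413% of all probe sets did). The part of these markers in the Cd80 values was not tested.

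Ak1, the cytosolic adenylate kinase that balances adenine nucleotides, had knockdowns on opposite sides of the control. By each gene's brightest probe set, it alone had all arrays of a knockdown above both controls and all of another below. It read 10.26 and 9.98 in siPsmd14, 9.74 and 9.52 in siDdb1, 9.14 and 8.97 in siSox2, and 9.60 and 9.57 in siNonTarget. The siPsmd14 arrays lay above the controls, the siSox2 arrays below, and the siDdb1 arrays around them. Neither side passed in limma against the control (0.54, adjusted p = 0.129 in siPsmd14, and -0.53, adjusted p = 0.107 in siSox2). For siDdb1 the difference was 0.05 with an interval of -0.28 to 0.38. A second probe set, at a mean of 4.06 below the array medians, passed in no comparison. Its mean lay below the control in each knockdown (-0.102 in siPsmd14, -0.425 in siDdb1 and -0.287 in siSox2).

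**Figure D2:**
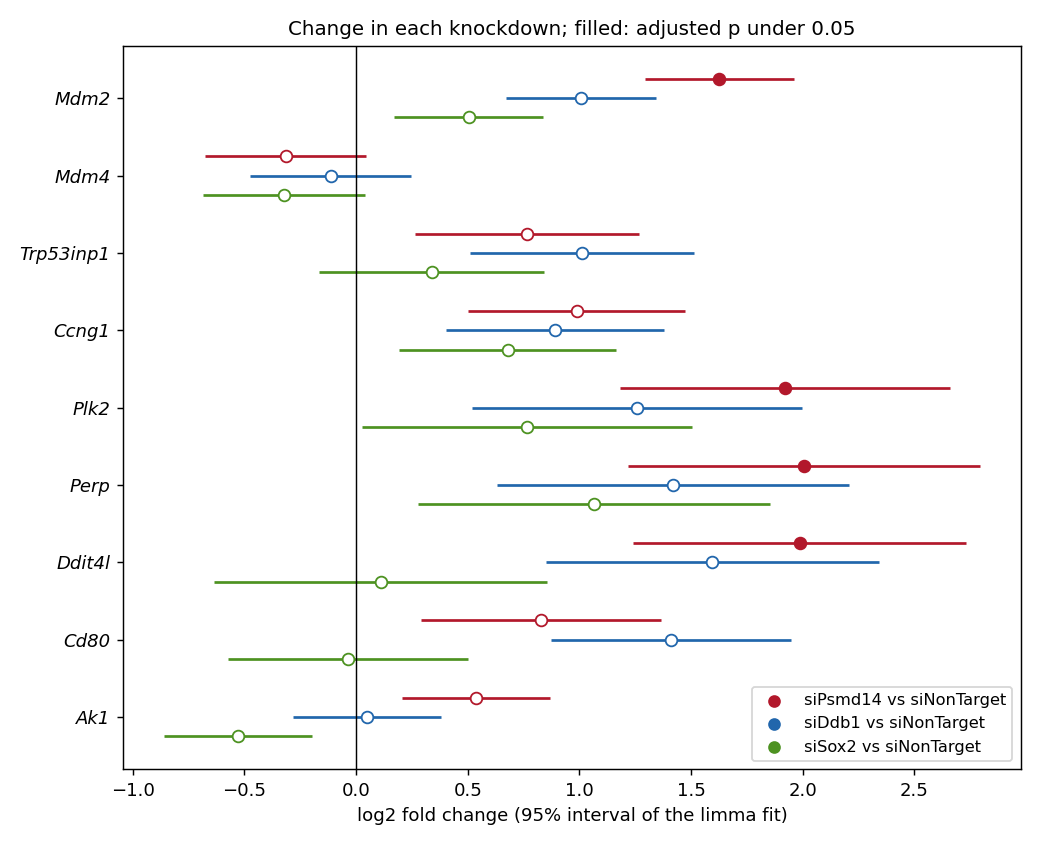
Log2 fold change of each gene against siNonTarget with its 95% interval from the limma fit, in red for siPsmd14, blue for siDdb1 and green for siSox2. Filled points passed an adjusted p of 0.05, which only Mdm2, Plk2, Perp and Ddit4l did, in siPsmd14 alone among the comparisons with the control.

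Direct comparisons of the knockdowns separated siPsmd14 and siDdb1 from siSox2 for some of the genes. Set against siSox2, siPsmd14 was higher for Mdm2 (1.12, SE 0.15, limma adjusted p = 0.00621), Ak1 (1.06, SE 0.15, adjusted p = 0.00749) and Ddit4l (1.88, SE 0.33, adjusted p = 0.0216), so 3 of 9 passed where 2.79% of all probe sets did (1.35% higher and 1.44% lower). The arrays of siPsmd14 lay above those of siSox2 for 7 of 9 genes (23.8% of all probe sets) and below for none (21.1%). Without siSox2 replicate 2 none of the 3 passed, without siPsmd14 replicate 1 Mdm2 alone did, and without siSox2 replicate 1 Ddit4l did not (1.62, limma adjusted p = 0.0977). Set against siSox2, siDdb1 was higher for Cd80 (1.45, SE 0.24, limma adjusted p = 0.0153) and Ddit4l (1.49, SE 0.33, adjusted p = 0.0487), 2 of 9 where 3.08% of all probe sets passed (1.37% higher and 1.71% lower). The arrays of siDdb1 lay above those of siSox2 for 5 of 9 genes (24.1% of all probe sets) and below for none (20.9%). Without siSox2 replicate 1 or siDdb1 replicate 1 neither passed, and Ddit4l did not pass in limma with the replicate number as a block (adjusted p = 0.0661), nor without either siNonTarget array, siSox2 replicate 2 or either siPsmd14 array. The second probe set of Cd80 gave 1.5 (limma adjusted p = 0.00307) in the same comparison. Its dimmer probe sets did not pass there (1.3, limma adjusted p = 0.0815, and 0.002, adjusted p = 0.998). For Ddit4l the second brightest probe set did not pass there (1.49, limma adjusted p = 0.214), while the dimmest did (1.27, adjusted p = 0.0464). In siPsmd14 against siSox2 these Ddit4l probe sets gave 2.11 (limma adjusted p = 0.0781) and 1.82 (adjusted p = 0.0127). Between siPsmd14 and siDdb1 none of the 9 passed in limma (0.413% of all probe sets did, 0.324% higher and 0.0888% lower), and 3 had an unadjusted p under 0.05 (10.8%). The arrays did not overlap for 4 genes, with Mdm2 and Ak1 higher in siPsmd14 (18.5% of all probe sets) and Mdm4 and Cd80 lower (19.7%). The siPsmd14 minus siDdb1 difference was 0.66 for Plk2 (interval -0.08 to 1.40), 0.58 for Perp (-0.20 to 1.37) and -0.58 for Cd80 (-1.12 to -0.04), so these arrays do not show that the 2 knockdowns act alike.

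The 4 calls in siPsmd14 rested on both control arrays, and those of Plk2, Perp and Ddit4l also on siPsmd14 replicate 1. Calls over all probe sets also became fewer when any 1 of these arrays was left out. Without siNonTarget replicate 1 or without replicate 2 none of the 9 passed, with limma adjusted p of 0.06 and 0.0782 for Mdm2, and without siPsmd14 replicate 1 Mdm2 alone passed (adjusted p = 0.0329). The differences stayed at 1.53 to 1.72 for Mdm2, 1.48 to 2.53 for Perp, 1.53 to 2.31 for Plk2 and 1.64 to 2.33 for Ddit4l over the arrays left out. Within siDdb1 replicate 1, with Ddb1 at 22.1% of the control mean, read higher than replicate 2, with Ddb1 at 46.1%, for all 9 genes (51.0% of all probe sets). Without siDdb1 replicate 2 Mdm2 (1.18, limma adjusted p = 0.0413) and Cd80 (1.75, adjusted p = 0.0384) passed against the control. In siPsmd14 replicate 1 was the higher one for 7 of 9 genes (50.2% of all probe sets), and Psmd14 stood at 90.5% on it and 82.7% on replicate 2. Replicate 1 was the higher one for 3 of 9 genes in siSox2 (51.1%) and 2 of 9 in siNonTarget (49.9%). The part of knockdown depth and of RNA quality in these gaps between replicates was not tested.

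**Figure D3:**
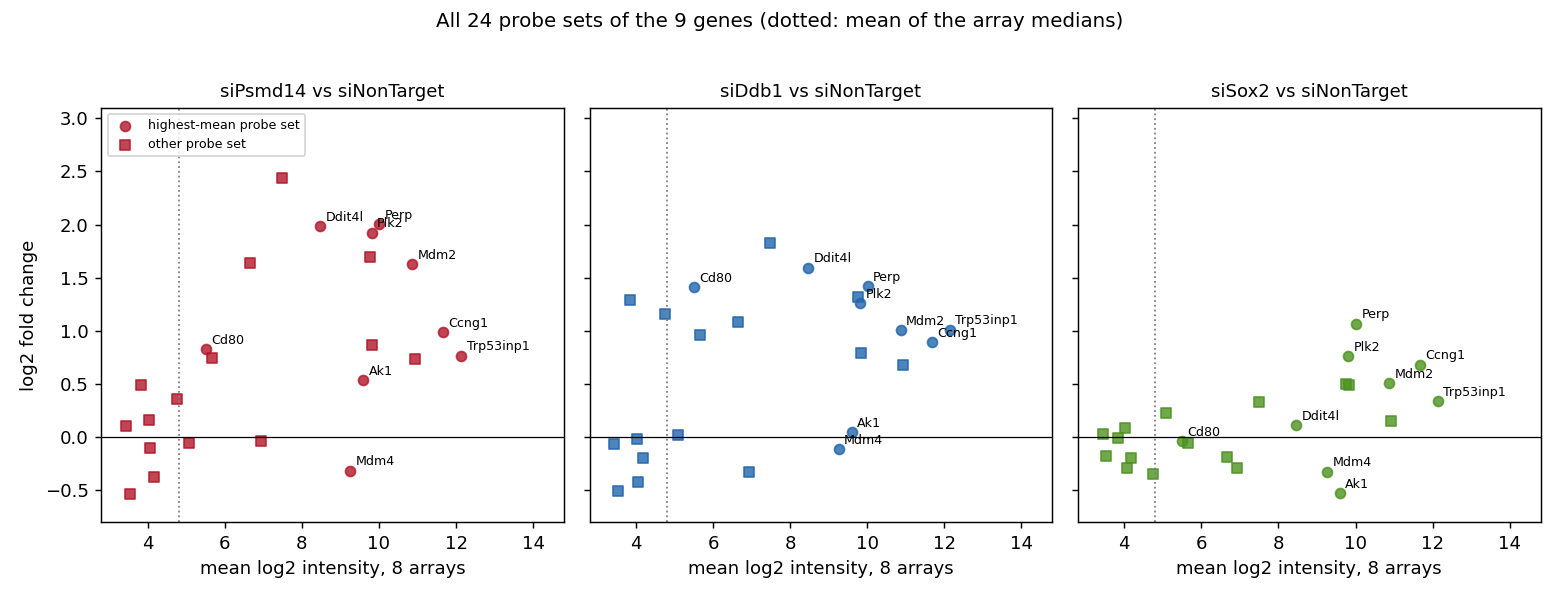
Log2 fold change against mean log2 intensity over the 8 arrays for all 24 probe sets of the 9 genes, with circles for the probe set that represents a gene, squares for the others and a dotted line at the mean of the array medians (4.81). Of the 24, 17 lie to the right of that line, and the 6 that passed in siPsmd14 are among them.

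Over all 24 probe sets, 6 passed in siPsmd14 against the control, 2 each for Mdm2 and Ddit4l and 1 each for Plk2 and Perp. The 7 probe sets with a mean below the array medians gave none of these calls. They cover Mdm2, Mdm4, Plk2, Cd80 and Ak1, and a probe set at that level limits what a small change can show. In siDdb1 against siSox2 and in the F test 1 of the 7 did pass. It was the second brightest Cd80 probe set (limma adjusted p = 0.00307 and 0.00756).

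Other genes of the p53 pathway were read from 4 lists with 77 measured genes. In siPsmd14, 11 of the 77 rose and none fell (1.11% and 0.24% of all probe sets), with a median difference of 0.27 against -0.015 over all genes. In siDdb1 none passed in either direction in limma (0.0266% of all probe sets did, median 0.28). In siSox2 4 rose and 1 fell (1.88% and 1.05% of all probe sets, median 0.02 against -0.028). A fall of 1 in 77 lies near that share of all probe sets. The lists were chosen with earlier results of these arrays known and are not independent evidence of a direction.

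Among 20 genes of arrest and DNA repair, 3 rose in siPsmd14. Cdkn1a, the CDK inhibitor p21 and the classical arrest gene of p53, read 9.87 and 9.62 in siPsmd14, 9.87 and 9.25 in siDdb1, 9.36 and 9.99 in siSox2, and 8.41 and 8.45 in siNonTarget. It rose in siPsmd14 (1.32, limma adjusted p = 0.0423) and in siSox2 (1.24, adjusted p = 0.0322), and all 6 knockdown arrays lay above the controls (1.13 in siDdb1, adjusted p = 0.244). The cyclin G2 gene Ccng2 rose in siPsmd14 (0.86, limma adjusted p = 0.0465) and siSox2 (0.83, adjusted p = 0.033), and had the smallest p of the list in siDdb1 (0.85, adjusted p = 0.194). Sfn, the 14-3-3 sigma protein that holds cells before mitosis, rose in siPsmd14 (1.40, limma adjusted p = 0.049). Gadd45a, a growth arrest gene, fell in siSox2 (-0.85, limma adjusted p = 0.0403) and differed by 0.13 in siPsmd14 and 0.11 in siDdb1.

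Of 16 measured cell death genes 1 rose in siPsmd14, Apaf1, which nucleates the apoptosome (1.14, limma adjusted p = 0.0427). It also had the smallest p of that list in siDdb1 (1.06, adjusted p = 0.214), and Bid had it in siSox2 (-0.65, adjusted p = 0.0857). Of 25 regulators of p53, 2 rose in siPsmd14: Ppp1r13l, which encodes iASPP, an inhibitor of p53 (0.75, limma adjusted p = 0.0428), and Cdkn2a, whose Arf product sequesters Mdm2 (0.93, adjusted p = 0.0464). The regulators with the smallest p elsewhere did not pass in limma, Trp73 in siDdb1 (0.92, adjusted p = 0.342) and the methyltransferase gene Setd7 in siSox2 (0.99, adjusted p = 0.076). The list's median lay near 0 in each knockdown (0.05 in siPsmd14, 0.00 in siDdb1 and -0.04 in siSox2).

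Of 16 measured secreted, metabolic and other targets 5 rose in siPsmd14, with a median of 0.78, among them the EGF receptor ligand Tgfa (1.08, limma adjusted p = 0.012), the growth factor binding protein Igfbp3 (1.43, adjusted p = 0.0146) and the lipase-family gene Abhd4 (1.97, adjusted p = 0.0155). In siSox2 Igfbp3 (1.79, limma adjusted p = 0.00282) and the circadian repressor Bhlhe40 (1.6, adjusted p = 0.0199) rose. In siDdb1 the peptide transporter gene Tap1 had the smallest p (1.46, limma adjusted p = 0.218), and the list's median was 0.53.

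**Figure D4:**
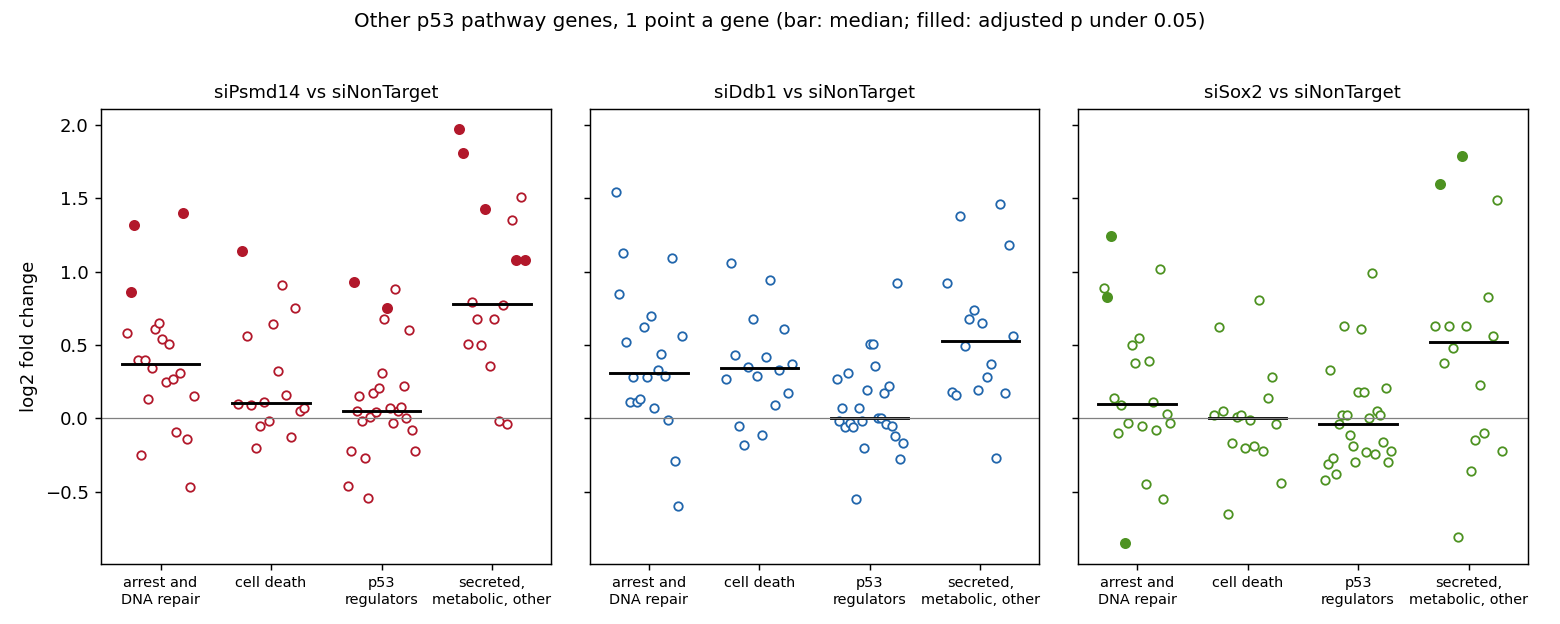
Log2 fold change against siNonTarget of the 77 other measured p53 pathway genes in 4 lists, 1 point a gene, with the list's median as a bar and genes past an adjusted p of 0.05 filled. In siPsmd14 11 points are filled, all above 0, in siDdb1 none, and in siSox2 5, of which Gadd45a lies below 0.

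The genes whose pattern over the 8 arrays lay closest to that of Mdm2 were found by the root mean square difference of mean-centred log2 values, among 11215 other genes with a mean of at least 5. The closest was Cdkn2b, the CDK4 and CDK6 inhibitor p15, at 0.146 log2 units, followed by the aldo-keto reductase gene Akr1b10 (0.177), the glucocorticoid receptor gene Nr3c1 (0.18), the repressor gene Bach1 (0.187) and the small GTPase gene Rap2b (0.205). The median over all those genes was 0.657. Cdkn2b read 8.01 and 7.90 in siPsmd14, 7.49 and 7.14 in siDdb1, 6.99 and 7.24 in siSox2, and 6.46 and 6.27 in siNonTarget. These genes were chosen for that pattern over the same arrays, so their levels are a description, with no test. Among the other p53 pathway members Plk2 lay closest to Mdm2 (0.284) and Mdm4 farthest (0.701).

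**Figure D5:**
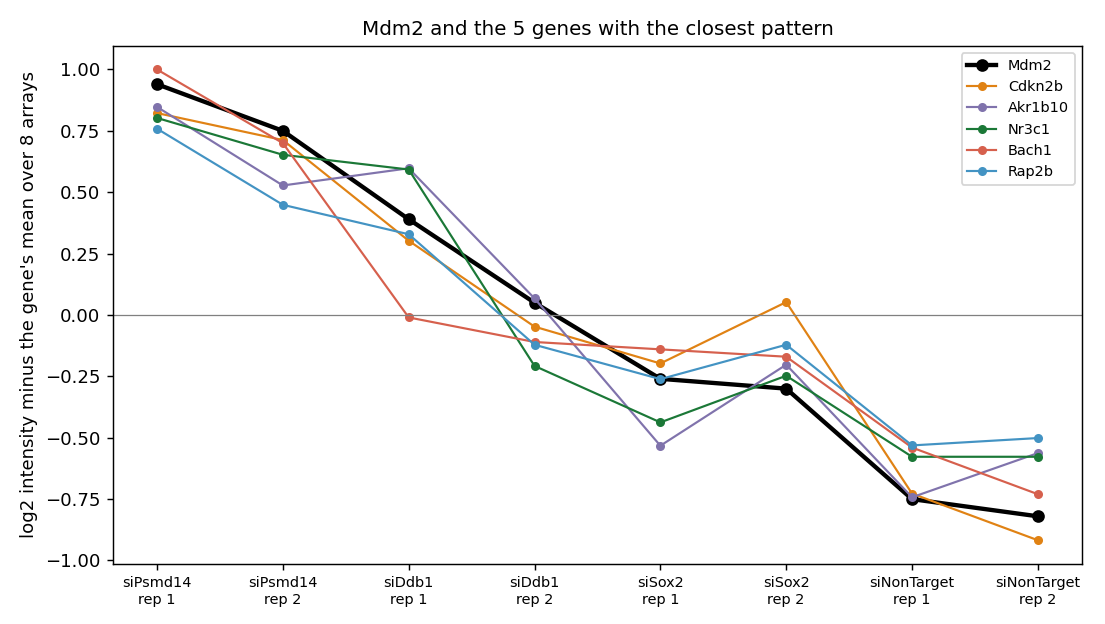
Log2 intensity minus each gene's mean over the 8 arrays for Mdm2 (black) and the 5 genes closest to it, which were chosen for this likeness, by array. Each of the 6 lines is highest on replicate 1 of siPsmd14 and lowest on 1 of the siNonTarget arrays, and replicate 1 of siDdb1 lies above replicate 2 for all of them.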

How the data were processed

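RNA of 8 samples was profiled on Affymetrix arrays, from 5 ng of total RNA amplified and labelled with biotin per the labels' protocols. The deposited intensity values were made by the authors with RMA, per the submitters' processing notes, and its version and settings are not stated in the sources at hand. RMA in its usual form equalises the arrays' distributions, so a difference is read against most other probe sets, and a change in total RNA per cell would not show. The linear values were turned into log2. The 64 control probe sets were left out of the 45101. GEO's platform annotation gave 34945 probe sets 1 symbol, 932 several and 9160 none.

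Samples were grouped by title. A single model held all 8 arrays (lmFit and eBayes without trend, limma 3.58.1, R 4.3.3), with Benjamini-Hochberg adjustment over 45037 probe sets, no filter on low values and no replicate block. The residual and prior degrees of freedom came to 9.02. Every adjusted p is from this model unless another setting is named, and precision is limited by having 2 arrays a group. The scripts were tested on simulated data.

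The members and lists were chosen with earlier results of these data known. Besides the members and targeted genes, Cdkn1a and, from each list and knockdown, up to 3 genes past the threshold with the smallest p, or the 1 with the smallest p where none passed, were named, with the 5 genes closest to Mdm2. Marker genes of other cell types were named after their values were seen where few passed. Alternatives were a filter on dim probe sets, array medians, quantile normalization, trend and robust moderation, array weights, the 4 arrays compared, a replicate block, an adjusted p of 0.01, each gene's second brightest probe set and leaving out each array.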

Additional observations from a re-analysis of the deposited data

How the results depend on the processing

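The number of the 9 genes past the threshold was within 1.5 times its value in every comparison under array medians, quantile normalization, array weights and the filter on dim probe sets. It went to 1 at an adjusted p of 0.01 in siPsmd14 against the control (from 4) and in the F test (from 6), and to 0 in siDdb1 against siSox2 (from 2). With second probe sets it was 2 in siPsmd14 against the control and 1 in siPsmd14 against siSox2 (from 3). Against the control siDdb1 gave 1 with trend and robust moderation (Mdm2), which also made Ccng1 pass in siPsmd14 against the control (0.99, limma adjusted p = 0.0344), and siSox2 gave 1 with only the 4 arrays compared (Perp), which gave 0 for siDdb1 against siSox2. The replicate block gave 1 in siDdb1 against siSox2 (Cd80) and 5 in the F test, where Plk2 was lost, and changed no other call of the 9 genes. Correlations between groups of the replicate 1 minus replicate 2 differences ran from -0.217 to 0.242. These values do not show a pairing by number across all groups, and a batch shared by some of the arrays was not tested. Crossing the siDdb1 numbers in the block, chosen after seeing the data, gave 1 in siDdb1 against the control, 5 in siPsmd14 against the control and 4 in siPsmd14 against siSox2.

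Leaving out 1 array gave 0 to 4 in siPsmd14, 0 to 2 in siDdb1 and 0 to 0 in siSox2 against the control, 0 to 3 in siPsmd14 and 0 to 2 in siDdb1 against siSox2, and 1 to 6 in the F test. A group left with 1 array is assumed to vary like the others. Over all probe sets those counts ran from 17 to 1295 (609), 0 to 146 (12) and 153 to 1440 (1320) for siPsmd14, siDdb1 and siSox2 against the control, 325 to 1543 (1255), 319 to 1486 (1387) and 11 to 884 (186) in siPsmd14 against siSox2, siDdb1 against siSox2 and siPsmd14 against siDdb1, and 562 to 2340 (1784) in the F test, with the value from all arrays in parentheses. At an adjusted p of 0.01 they were 86, 0, 375, 331, 383, 22 and 422 in the same order. With only the 4 arrays compared, siDdb1 against the control gave 0, siPsmd14 against siSox2 455, siDdb1 against siSox2 789 and siPsmd14 against siDdb1 11, and array weights gave 122 in the last. In siDdb1 against the control the replicate block gave 2, the crossed block 53 and the filter on dim probe sets 0.

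Signs turned only for differences that passed under neither setting, apart from Plk2 in siPsmd14 by its dim second probe set (-0.54). That setting also turned Ak1 (-0.10) in siPsmd14, Plk2 (-0.50) and Ak1 (-0.42) in siDdb1, Trp53inp1 (-0.05) and Plk2 (-0.18) in siSox2, Plk2 (-0.36) in siPsmd14 against siSox2, Mdm4 (-0.04), Plk2 (-0.33) and Ak1 (-0.14) in siDdb1 against siSox2, and Mdm4 (0.30) and Plk2 (-0.03) in siPsmd14 against siDdb1. Subtracting array medians turned Mdm4 in siPsmd14 against siSox2 (-0.01). Leaving out 1 array at a time gave ranges that span 0. Against the control they were -0.06 to 0.15 for Ak1 and -0.29 to 0.06 for Mdm4 in siDdb1, and -0.24 to 0.46 for Ddit4l and -0.27 to 0.20 for Cd80 in siSox2. Against siSox2 they were -0.16 to 0.17 for Mdm4 in siPsmd14, and -0.01 to 0.43 for Ccng1 and -0.08 to 0.79 for Perp in siDdb1. In siPsmd14 against siDdb1 they were -0.12 to 0.32 for Ccng1 and -0.08 to 0.86 for Ddit4l. The cause of these changes was not tested.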
